A study of Mus musculus with 6 samples.

Results

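The immediate early genes described here are Fos, Fosb, Jun, Junb, Jund, Egr1, Ier2, Ier3, Atf3 and Nr4a1. They were found as all probe sets that the array's platform annotation maps to exactly 1 gene symbol among these names. This gave 12 of the 45037 probe sets tested and 10 of the 18193 genes with a probe set. Jun and Jund had 2 probe sets each and the other 8 genes had 1 each. The rule that finds the probe sets uses no measured value, but the gene names were proposed with earlier results of these data known.

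Gene expression was measured on 6 short-probe arrays in ocular lenses of mouse embryos taken late in gestation, at E19.5. The wild type group was 3 littermate controls in which Notch2 was not ablated in the lens, and the mutant group was 3 embryos with a conditional, lens-specific loss of Notch2, a receptor of the Notch pathway. All embryos had a mixed C57BL/6 and FVB/N background, and RNA came from the pooled pair of lenses of each embryo. The sources used here do not name the Cre driver or the cells in which it acts. The values deposited are log2 values that sit around 0, the 6-array median of every probe set having been subtracted. A value is therefore a difference from that median, not a level, and the middle pair of arrays always lies at equal distances above and below 0. No level could be set against another gene's, and the lens identity of the tissue could not be checked by presence or absence of markers. Differences below are mutant minus wild type on the log2 scale, with limma's standard error (SE) and its p adjusted by Benjamini-Hochberg over all 45037 probe sets, and n = 3 arrays per group. The number of arrays limits the precision.

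Immediate early genes are switched on within minutes of a growth factor, stress, calcium or depolarisation signal, without new protein synthesis. ERK and other kinases act on factors already bound at their promoters, such as SRF with its ternary complex partners and the CREB and ATF proteins. Fos and Jun proteins pair through leucine zippers to form AP-1, Egr1 and Nr4a1 are transcription factors of the zinc finger and nuclear receptor families, and the transcripts are short-lived, so their abundance follows recent signalling. In the lens, growth factors from the surrounding eye fluids act through ERK on both epithelial division and fibre differentiation.

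Promoter sequence is shown for Fos and Jun, which had the largest differences among the members and in opposite directions, and for Nr4a1, which had the smallest. The stretches are the 100 bases before the RefSeq start in assembly GRCm38.p6, 5′ to 3′ on the strand of the gene. Jun is at chr4:95052223-95052322 on the minus strand, Fos at chr12:85473790-85473889 on the plus strand and Nr4a1 at chr15:101266746-101266845 on the plus strand. Capitals mark TGACATCA in Jun, the type of element through which AP-1 is known to act on the Jun promoter. In the others they mark TGACG or its reverse complement CGTCA, the core of the cAMP response element bound by CREB and ATF proteins.
Jun: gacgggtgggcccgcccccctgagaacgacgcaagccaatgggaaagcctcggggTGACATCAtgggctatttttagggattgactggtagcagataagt
Fos: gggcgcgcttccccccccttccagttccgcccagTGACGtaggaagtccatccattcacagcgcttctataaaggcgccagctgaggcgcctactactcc
Nr4a1: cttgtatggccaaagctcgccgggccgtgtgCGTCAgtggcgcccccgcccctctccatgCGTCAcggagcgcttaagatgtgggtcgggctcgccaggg

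The RefSeq table held promoters of 8 members, Egr1 and Ier2 being the other two. On both strands of the 250 bases before the start, TGACG was found in 5 of the 8, with 4 matches in Nr4a1, 2 in Fos and 1 each in Fosb, Junb and Atf3. It was found in 17.8% of all 32851 promoters of the same length. TGACATCA was found in Jun alone among the 8 and in 2.93% of all promoters. This element was known beforehand from the Jun promoter, so its match in Jun is no independent observation about the members. None of the 8 held the full element TGACGTCA, which contains the core on both strands (1.55% of all promoters), the AP-1 site TGACTCA (4.46%) or the SRF site known as the CArG box (1.47%) in this window. These matches describe the letters of the window and are not shown to be bound sites.

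No immediate early gene passed the test between mutant and wild type lenses. By limma, 0 of the 12 probe sets had an adjusted p below 0.05, where 0.469% of all probe sets passed. At an unadjusted p below 0.05 there was 1 of 12, a Jun probe set lower in mutants, against 11.6% of all probe sets. The groups did not overlap in 2 of 12, a share close to the 17.8% of all probe sets. Both were lower in mutants, the direction in which 9.1% of all probe sets did not overlap, and belonged to Jun and Jund. Differences were positive in 7 probe sets and negative in 5. Taking for each gene the probe set that varied most over the 6 arrays (the largest standard deviation), the median difference was 0.023 for the 10 genes and -0.029 for all 18193. The median size of the difference without its sign was 0.11 for the 10 genes and 0.20 for all genes.

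**Figure D1:**
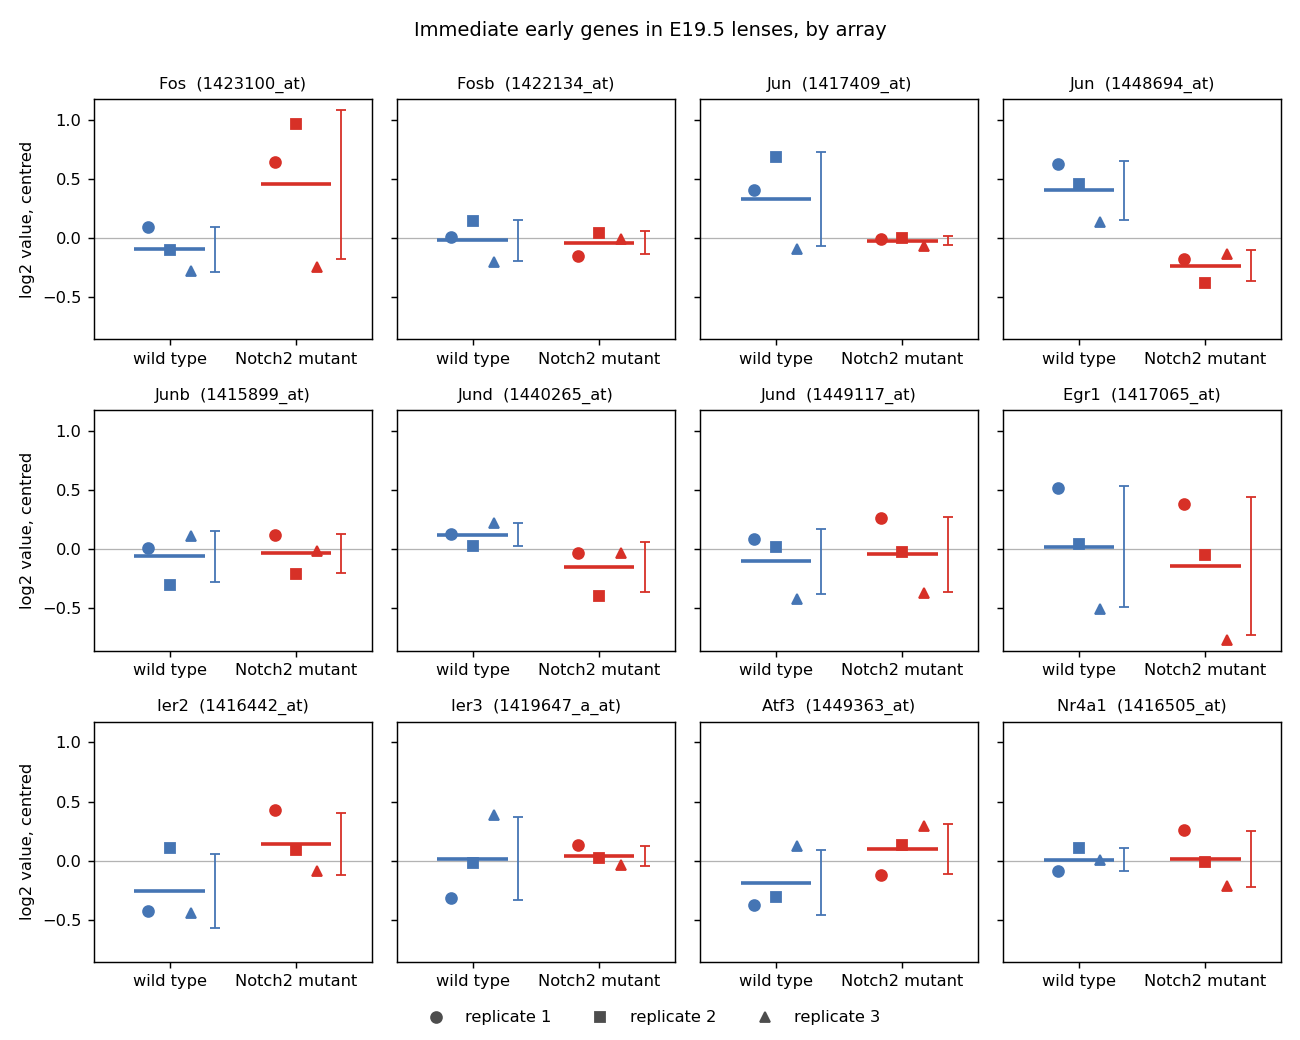
Log2 values centred on each probe set's median (vertical axis) for the 12 probe sets of the 10 genes in wild type (blue) and Notch2 mutant (red) lenses, with symbols for the replicates, thick lines for group means and bars for ± 1 SD (n = 3). Only the Jun probe set 1448694_at and the Jund probe set 1440265_at have groups that do not overlap, while Fos and Egr1 spread over more than 1 log2 unit among the mutants.

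Among the AP-1 subunits, Jun had the largest difference in size of all members. Jun is the most widely used partner of Fos proteins and is phosphorylated by JNK. Its probe set 1448694_at read 0.63, 0.46 and 0.13 in wild type replicates 1 to 3 and -0.18, -0.38 and -0.13 in mutant replicates 1 to 3. All 3 mutant arrays lay below all 3 wild type arrays, with wild type 3 the nearest to them. The means were 0.41 ± 0.25 and -0.23 ± 0.13 (SD, n = 3), and the difference of -0.64 (SE 0.18, adjusted p = 0.175) is a 1.55-fold lower mutant value. It did not pass over all probe sets, and its unadjusted limma p was 0.00541 with an interval of -1.03 to -0.24 (95%, not corrected for the number of probe sets).

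The second Jun probe set, 1417409_at, read 0.41, 0.69 and -0.09 in wild type replicates 1 to 3 and -0.0028, 0.0028 and -0.06 in mutant replicates 1 to 3. Here wild type 3 fell below every mutant, so the groups overlapped, and the difference was -0.36 (SE 0.21, adjusted p = 0.580). The mutant arrays were close together (SD 0.036) and the wild type ones were not (SD 0.40). Both Jun probe sets thus had wild type 1 and 2 as their highest arrays, and the mean of the probe sets differed by -0.50 (SE 0.16), with an adjusted p of 0.210 over genes in limma. When arrays were weighted by limma's estimate of their quality, 1448694_at passed (-0.75, adjusted p = 0.0427), with a weight of 2.96 for wild type 1 and 0.414 for wild type 3.

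Fos, the inducible partner of Jun, had the largest positive difference. It read 0.10, -0.10 and -0.28 in wild type replicates 1 to 3 and 0.65, 0.97 and -0.25 in mutant replicates 1 to 3. Mutants 1 and 2 stood above all controls and mutant 3 lay among them, next to wild type 3. The means were -0.09 ± 0.19 and 0.46 ± 0.63 (SD, n = 3), and the difference of 0.55 (SE 0.29, adjusted p = 0.529) did not pass. Its interval of -0.10 to 1.20 allows anything from a slightly lower to a 2.29-fold higher mutant value. The difference was 0.90 without mutant 3 (adjusted p = 0.131) and 0.29 without mutant 2 (adjusted p = 0.817), so these single arrays set its size.

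Fosb, a Fos relative that is also induced by activity in neurons, varied little. Its values were 0.0087, 0.14 and -0.20 in wild type replicates 1 to 3 and -0.15, 0.048 and -0.0087 in mutant replicates 1 to 3. The groups overlapped throughout, with a difference of -0.019 (SE 0.16, adjusted p = 0.981) and an interval of -0.38 to 0.34.

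Junb and Jund are the subunits often described as restraining Jun activity, Jund being expressed steadily rather than by induction. Junb read 0.011, -0.30 and 0.11 in wild type replicates 1 to 3 and 0.12, -0.21 and -0.011 in mutant replicates 1 to 3. Replicate 2 was the lowest array of each group, and the difference was 0.027 (SE 0.17, adjusted p = 0.975). For Jund the probe sets gave opposite signs. Probe set 1440265_at read 0.13, 0.028 and 0.22 against -0.028, -0.40 and -0.028 in mutant 1, 2 and 3. The groups did not overlap there, but the gap between wild type 2 and mutants 1 and 3 was small and the difference of -0.28 (SE 0.16, adjusted p = 0.592) did not pass. Probe set 1449117_at read 0.09, 0.022 and -0.42 against 0.27, -0.022 and -0.37, with overlapping groups and a difference of 0.059 (SE 0.21, adjusted p = 0.950). The direction of Jund was therefore not settled.

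Atf3, a stress-induced bZIP factor that pairs with Jun proteins and can repress, read -0.38, -0.30 and 0.13 in wild type replicates 1 to 3 and -0.13, 0.13 and 0.29 in mutant replicates 1 to 3. Wild type 1 and 2 were the lowest arrays, but wild type 3 lay at the level of mutant 2. The difference was 0.28 (SE 0.19, adjusted p = 0.643) with an interval of -0.15 to 0.71.

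Egr1, a zinc finger factor induced through SRF, varied most within the groups. It read 0.52, 0.048 and -0.50 in wild type replicates 1 to 3 and 0.39, -0.048 and -0.76 in mutant replicates 1 to 3. Each genotype held a high, a middle and a low array, and the ranges of 1.02 in wild type and 1.15 in mutants were about as wide. The difference of -0.17 (SE 0.33, adjusted p = 0.899) was smaller than the SD of either group (0.51 and 0.58). The within-group SD of Egr1 stood at percentile 97.6 among all probe sets and that of Fos at percentile 94.2, the highest of the members, while Fosb stood at 19.8. The interval of -0.91 to 0.58 for Egr1 leaves room for a 1.49-fold higher mutant value or one at 0.534 of wild type.

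Nr4a1, an orphan nuclear receptor, had the smallest difference of the members. It read -0.09, 0.11 and 0.0085 in wild type replicates 1 to 3 and 0.26, -0.0085 and -0.21 in mutant replicates 1 to 3. The mutants were spread on both sides of the controls, and the difference was 0.0042 (SE 0.17, adjusted p = 0.996, interval -0.38 to 0.39).

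Ier2 and Ier3 are named as immediate early response genes, Ier3 being known as a regulator of survival and NF-kB signalling. Ier2 read -0.42, 0.11 and -0.45 in wild type replicates 1 to 3 and 0.43, 0.09 and -0.09 in mutant replicates 1 to 3. Wild type 1 and 3 were the lowest arrays and wild type 2 lay between the mutants. The difference of 0.40 (SE 0.21, adjusted p = 0.531) did not pass. Ier3 read -0.32, -0.018 and 0.39 in wild type replicates 1 to 3 and 0.13, 0.018 and -0.04 in mutant replicates 1 to 3. All mutants fell inside the range of the controls, and the difference was 0.020 (SE 0.20, adjusted p = 0.985).

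**Figure D2:**
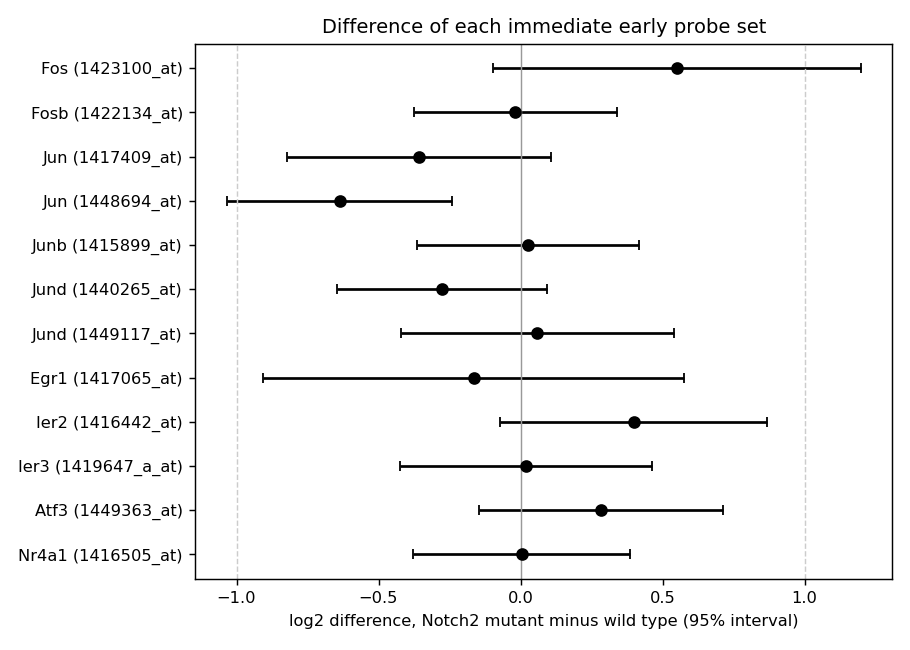
Log2 difference of each probe set, mutant minus wild type (horizontal axis), with limma's 95% interval from 3 arrays per group; dashed lines mark a difference of 1 either way. The interval of Jun 1448694_at, -1.03 to -0.24, is the only one that leaves out 0, and only those of Fos, up to 1.20, and this Jun probe set reach past a difference of 1.

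The intervals set how large a change these arrays could have missed. Of the 12 probe sets, 1 had an interval reaching above a difference of 1 (Fos) and 1 reaching below -1 (Jun 1448694_at). The smallest difference that passed anywhere on the array was 0.85. The median SE of the 12 was 0.19, the same as over all probe sets to 2 digits.

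The mean of the 10 genes was 0.015, 0.016 and -0.11 in wild type replicates 1 to 3 and 0.18, 0.058 and -0.16 in mutant replicates 1 to 3, so the groups overlapped and the lowest array was a mutant. Mutant 1 was the highest array for 4 of the 12 probe sets and the lowest for 0, and wild type 3 was the lowest for 5 and the highest for 2. Mutant 3 lay below 0 for 11 of the 12 probe sets, all but that of Atf3, where 49.0% of all probe sets lay below 0 in this array. In the other arrays 4 to 6 of the 12 lay below 0. Among 7883 other genes with a standard deviation of at least 0.3, those with values most like the members' mean were Ranbp2 (Pearson r = 0.998 over 6 arrays), Srsf11 (0.986), Lactb (0.986), Chac2 (0.984), Zfpm1 (0.982), Rtf1 (0.981), Ocln (0.978), Cldn34c1 (0.976), Btbd9 (0.973) and Epha7 (0.970). None of the 10 is on the pathway lists below. With 6 points and so many candidates, these r values describe the arrays only.

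The arrays also fell into sets that the genotypes do not explain. Hybridization controls are bacterial and phage transcripts added in fixed amounts before hybridization, and their mean over 18 probe sets was -0.99, -1.50 and 0.99 in wild type replicates 1 to 3 and -1.48, 1.48 and 1.08 in mutant replicates 1 to 3. Wild type 1, wild type 2 and mutant 1 thus had low controls, and wild type 3, mutant 2 and mutant 3 high ones. No label calls this a batch. The control means were 0.86 higher in mutants, which is within the spread of the arrays (exact two-sided permutation p = 0.40, where 0.10 is the smallest possible). Each probe set being centred, the 3' minus 5' difference of a control transcript compares RNA integrity between arrays only. For Actb it was -0.22 to 0.026 in wild type and -0.07 to 0.11 in mutants (exact permutation p = 0.20). For Gapdh it was -0.18 to 0.044 in wild type and -0.068 to 0.057 in mutants (exact permutation p = 0.6).

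Egr1, Jund 1449117_at and Atf3 separated by this split of the arrays and not by genotype. These were 3 of the 12 probe sets, a share close to the 21.4% of all probe sets that separated in this way. Egr1 had a mean of 0.32 in the arrays with low controls and -0.44 in those with high controls, and Jund 1449117_at had 0.13 and -0.27. Atf3 went the other way, with -0.27 and 0.18. Within the low and the high set of arrays the mutant minus wild type difference was 0.10 and 0.09 for Egr1, so its sign turned from the -0.17 over all arrays. It was 0.65 and 0.64 for Fos, 0.59 and 0.45 for Ier2, and -0.72 and -0.39 for Jun 1448694_at, the same signs as over all arrays. Egr1, Fos, Ier2, Atf3, both Jund probe sets and Jun 1448694_at had 1 sign in both sets, and 5 of the 12 probe sets had opposite signs. Those were the other Jun probe set (-0.55 and 0.064), Fosb (-0.22 and 0.22), Junb (0.27 and -0.22), Ier3 (0.30 and -0.40) and Nr4a1 (0.25 and -0.12). Within a set, 1 genotype had a single array, so these values carry no error of their own. With the split as a block in limma, Ier2 differed by 0.52 (SE 0.18, adjusted p = 0.183), Fos by 0.64 (SE 0.30, adjusted p = 0.292) and Jun by -0.56 (SE 0.15, adjusted p = 0.122). No member passed. The part of the control level in the values of Egr1, Jund and Atf3 was not tested.

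**Figure D3:**
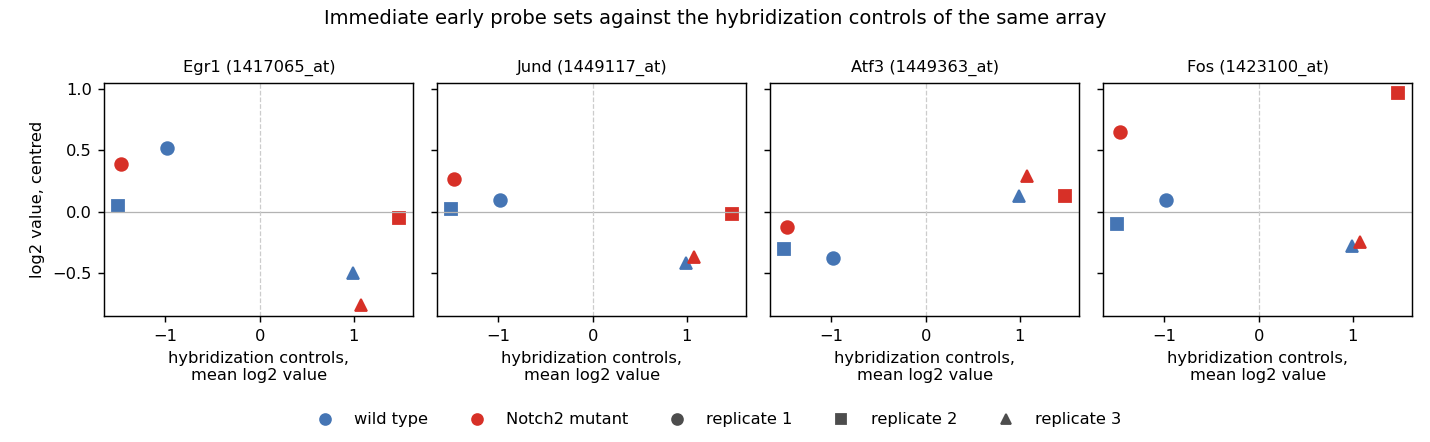
Centred log2 values of Egr1, Jund 1449117_at, Atf3 and Fos (vertical axis) against the mean log2 value of the hybridization controls of the same array (horizontal axis), 1 point per array, blue for wild type and red for Notch2 mutants. Egr1 and this Jund probe set are higher and Atf3 is lower in the 3 arrays with low controls, whatever the genotype, while Fos shows no such order. The first 3 probe sets are shown because they separated in this way, as did 21.4% of all probe sets.

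Genes around the members in the immediate early response were taken as 4 lists, each gene by its probe set with the largest standard deviation. On this basis 0.748% of all genes passed and the groups did not overlap in 19.6%. The share at an unadjusted p below 0.05 was taken only over all probe sets, at 11.6%. The counts of genes below at that threshold therefore have no share on their own basis beside them. None of the 17 measured other AP-1 and ATF factors passed in limma. At an unadjusted p below 0.05 there were 2 higher and 1 lower, 1 did not overlap, and the median difference was -0.053. The smallest p was that of Mafg, a small Maf protein that pairs with other bZIP factors, at -0.50 (SE 0.16, adjusted p = 0.266). Creb5 (0.61), Atf4 (0.66) and the Fos relative Fosl2 (0.45) had overlapping groups. Their other probe sets lay between -0.015 and 0.21.

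Among 21 other immediate early transcription regulators none passed in limma, 4 were higher and 0 lower at an unadjusted p below 0.05, 3 did not overlap and the median was 0.12. The 3 without overlap were 14.3% of the list, where 19.6% of all genes did not overlap and 9.48% did so with mutants higher. Those 3 were Id1, an inhibitor of bHLH factors (0.57, adjusted p = 0.281), Klf10, a zinc finger factor (0.53, adjusted p = 0.320), and Btg2, an antiproliferative cofactor (0.67, adjusted p = 0.365), all higher in mutants. Wild type 3 was the lowest array for each, at -1.10 for Btg2 against -0.23 and -0.039 in wild type 1 and 2, and at -0.69 for Klf10 against -0.21 and -0.074. The list's mean was -0.25 in wild type 3 against -0.031 and 0.030 in wild type 1 and 2, and this array had the largest SD over all probe sets (0.384, the others 0.223 to 0.333). Its part in these differences was not tested. Ier5, of the same naming as Ier2 and Ier3, differed by 0.49 (SE 0.19, adjusted p = 0.366) and by 0.41 to 0.56 in its other probe sets.

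The 34 measured feedback and effector genes of the response ranged from -0.88 to 1.32, where the 10 members ranged from -0.64 to 0.55. A range tends to widen with the number of genes. The upper end was Rgs2, whose other probe sets lay between 0.17 and 0.83. None of the 34 genes passed in limma by the probe set taken, and 8 were higher and 3 lower at an unadjusted p below 0.05. The groups did not overlap in 11, of which 8 were higher and 3 lower in mutants. Over all genes by this probe set rule, 9.48% did not overlap with mutants higher and 10.1% with mutants lower. The list's median difference was 0.14. Dusp6 and Dusp4, phosphatases that switch ERK off, were higher in all mutants than in all controls. The difference was 0.97 for Dusp6 (SE 0.17, adjusted p = 0.0544) and 1.22 for Dusp4 (SE 0.26, adjusted p = 0.0782). Of the other Dusp and Spry genes of the list, Spry1 was lower in all mutants than in all controls (-0.605, SE 0.17, adjusted p = 0.178). The rest had overlapping groups, at 0.23 for Dusp5, 0.30 for Spry2, -0.096 for Dusp1, -0.088 for Dusp2 and -0.049 for Spry4. Plk2, a polo-like kinase, differed by -0.88 (SE 0.15, adjusted p = 0.0526), although another probe set read 0.23. Nab2, a corepressor that binds Egr1, read -0.21, -0.27 and -0.23 in wild type replicates 1 to 3 and 0.81, 0.65 and 0.21 in mutant replicates 1 to 3. All mutants lay above all controls, in contrast to Egr1 itself, and the difference was 0.79 (SE 0.18, adjusted p = 0.105).

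A single probe set of these lists passed over all probe sets. It was 1 of 70 in the feedback and effector list, and the other lists had 0 of 42, 0 of 42 and 0 of 68. Of all probe sets 0.469% passed, so a single call does not set these lists apart. The probe set belonged to Zfp36l1, whose protein binds AU-rich elements and speeds the decay of short-lived transcripts. It was not the one taken for the list. Probe set 1450644_at read -0.77, -0.41 and -0.87 in wild type replicates 1 to 3 and 0.63, 0.41 and 0.46 in mutant replicates 1 to 3, a rise of 1.18 (SE 0.17, adjusted p = 0.0385). The probe set taken differed by 0.97 (adjusted p = 0.222). The call held without wild type 2 (1.32, adjusted p = 0.0366). It was lost when any of the other 5 arrays was left out. The difference was then 1.14 without wild type 1 (adjusted p = 0.197) and 1.09 without wild type 3 (adjusted p = 0.0720). Leaving out mutant 1 gave 1.12 (adjusted p = 0.111), mutant 2 gave 1.23 (adjusted p = 0.166) and mutant 3 gave 1.20 (adjusted p = 0.0736).

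Upstream, none of 20 measured kinases, Ras proteins and promoter-bound factors passed in limma, 0 had an unadjusted p below 0.05, 2 did not overlap and the median was 0.077. The smallest p values were those of the ribosomal S6 kinase genes Rps6ka3 (0.42, adjusted p = 0.492) and Rps6ka5 (0.47, adjusted p = 0.504), the ERK-activating kinase gene Map2k1 (-0.23, adjusted p = 0.609) and the ternary complex factor Elk4 (-0.45, adjusted p = 0.634). Other probe sets gave smaller values, from -0.081 to 0.20 for Rps6ka3, 0.069 to 0.22 for Rps6ka5 and -0.28 to 0.14 for Elk4. The Elk4 probe set read 1.14 in wild type 3, against -0.048 and 0.048 in wild type 1 and 2.

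**Figure D4:**
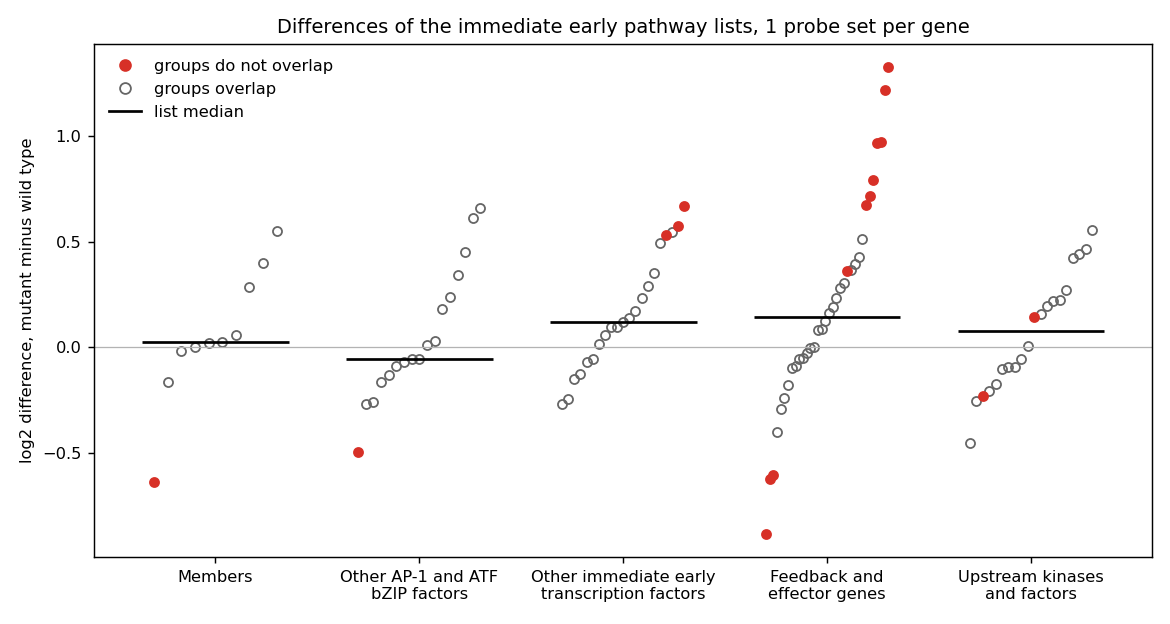
Log2 difference, mutant minus wild type (vertical axis), of each gene by 1 probe set, for the 10 members and the 4 lists; filled points have groups that do not overlap and horizontal lines are list medians. The 10 members lie between -0.64 and 0.55, and the 34 feedback and effector genes reach from -0.88 to 1.32. A range tends to widen with the number of genes.

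Some marker lists of lens and other cells differed between the genotypes in the same arrays and others did not. Here rose and fell mean an adjusted p below 0.05 in limma, reached by 0.748% of all genes in either direction. Of 22 measured markers of retinal neurons and progenitors 11 rose, and all 22 had positive differences. Their array means were -1.24 to -0.45 in wild type and 0.44 to 1.07 in mutants. Of 17 lens markers 3 fell, with array means of 0.27 to 0.44 against -0.42 to -0.21. The groups did not overlap in 9 of the 17, all lower in mutants, and 2 of the 17 had positive differences. Of 9 glial and Schwann cell markers 1 rose, with array means of -0.56 to -0.035 against 0.087 to 0.24. Of these 9 genes 3 had negative differences. Macrophage markers had none of 17 passing in limma. At an unadjusted p below 0.05 there were 9 higher and 1 lower, counts of genes with no share on their own basis. The groups did not overlap in 5 of the 17, all higher in mutants, where 9.48% of all genes did so in this direction. The array means of the macrophage markers overlapped, at -0.89 to 0.064 against 0.029 to 0.43. Array means also overlapped for endothelial, mesenchymal, pigment cell and erythroid markers. In these 4 lists 1 mesenchymal gene of 11 rose, and mean differences were -0.030, 0.15, 0.033 and -0.026. Whether any of them is at 0 cannot be read from centred values, and fewer cells of a type and less RNA per cell cannot be told apart in whole lenses. Their part in the values of Jun, Fos, Zfp36l1 or the phosphatases was not tested. The 2 probe sets of Notch2 itself differed by 0.49 and -0.42 with overlapping groups, and since the sources used here do not place them relative to the deleted part, they do not check the labels.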

How the data were processed

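Per the submitters' processing notes, the authors made the deposited log2 values with RMA. The version and genome build are not given in the sources used here. This method usually corrects background, normalises arrays by quantiles and summarises probes, and it can shrink the differences of dim probe sets. The log base was taken from its usual output and the range of values. Every probe set had a median of 0 over the 6 arrays to within 5e-07, a centring that no source used here describes. From these values the functions lmFit and eBayes of limma 3.58.1 (R 4.3.3), without covariates and at a threshold of 0.05, compared 3 mutant with 3 wild type arrays over 45037 probe sets, after 64 array controls were left out. The script was tested on simulated data. Genes were named from the platform annotation, and all 10 members matched RefSeq (GRCm38.p6) by Entrez identifier. Named genes were all members, list genes that passed, the 4 of each list with the smallest p, and the 10 genes most like the members' mean. Zfp36l1, Rgs2 and the other Dusp and Spry genes were named after their values were seen, and Notch2 as the targeted gene. The members and lists were chosen with earlier results of these data known. Alternatives were other normalisations, array weights, filters, blocks and each array left out. A filter on dim probe sets needs levels and was not run.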

Additional observations from a re-analysis of the deposited data

How the results depend on the processing

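The absence of calls among the 12 member probe sets and among the 10 genes held under every alternative except array weights, where limma called 1 of each, Jun. The count over all probe sets was 211, and it was 584 after a repeated quantile normalisation, 889 with array weights, 738 among probe sets whose SD over the arrays exceeded the median SD, which kept 7 of the 12 member probe sets, 790 with the hybridization control split as a block and 7 to 155 with each array left out. With the replicate number as a block it was 530. Same-numbered arrays correlated at 0.33, -0.14 and 0.26 in their deviations from the group means. The mutant most like wild type 1, 2 and 3 in these deviations was mutant 1, 1 and 3. Egr1 and Jund 1449117_at fell from replicate 1 to 3 in both genotypes. With 3 arrays per group, these values cannot tell whether the numbers pair the embryos. No member passed under the replicate block. In 163 refits of single member probe sets 16 changed sign, all of differences under 0.2. With array weights Jund 1449117_at was at -0.10, and with the split as a block Fosb was at 0.00030, Egr1 at 0.098 and Ier3 at -0.049. With each array left out, Egr1 ranged from -0.43 to 0.15, Fosb from -0.11 to 0.062, Ier3 from -0.15 to 0.20, Junb from -0.095 to 0.11, Jund 1449117_at from -0.099 to 0.22 and Nr4a1 from -0.12 to 0.12. Fos, Ier2, Atf3, both Jun probe sets and Jund 1440265_at kept their sign throughout. The cause of these changes was not tested. With 3 arrays per group and no levels, whether a member lay near background could not be checked.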
